A study of Mus musculus with 4 samples.

Results

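The discoidin domain receptors and integrins are the receptors by which cells bind collagen, laminin, fibronectin and vitronectin in the extracellular matrix. The genes described are 10 of the 54838 in each count table, the rows whose identifiers map to Ddr1, Ddr2, Itga1, Itga3, Itga5, Itga6, Itgav, Itgb1, Itgb4 and Itgb5 in GENCODE M21 (GRCm38). They were measured by RNA sequencing in 2 libraries of the p300 knock-in line MLC460 and 2 libraries of its wild-type parent. The parent is E14Tg2a.4, a mouse embryonic stem cell line of strain 129/Ola, and it carries no tag. In the knock-in line, made with CRISPR/Cas9, monomeric enhanced green fluorescent protein (mEGFP) is joined to the N-terminus of endogenous p300, a histone acetyltransferase and transcriptional coactivator. Both lines were grown on gelatin, which is denatured collagen, in medium with serum and leukemia inhibitory factor. The replicates are called biological by the submitters. Only 1 knock-in line was sampled, so the contrast takes in whatever else changed while that line was made. The genes were chosen by name with the knock-in to wild-type fold changes of these libraries known, Ddr2's among them.

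Ddr1 and Ddr2 are receptor tyrosine kinases that are switched on by triple-helical collagen. Integrins are pairs of an alpha and a beta subunit, and the pair sets the ligand. Paired with Itgb1, Itga1 binds collagen, Itga5 binds fibronectin, and Itga3 and Itga6 bind laminin. Itgav pairs with Itgb1, Itgb3 and Itgb5 to bind vitronectin and other proteins with an RGD motif, and Itga6 with Itgb4 forms the laminin receptor of hemidesmosomes. In mouse embryonic stem cells integrins of the Itgb1 family hold the cells to fibronectin and laminin, and loss of Itgb1 stops development of the mouse embryo at about implantation.

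Counts assigned to genes totalled 25266051 and 18946731 in the knock-in libraries and 26553998 and 21791128 in the wild-type libraries. Wild-type 2 stood apart: its deviation from the other libraries followed the GC content of the gene's longest transcript across genes (Spearman rho 0.65, as a description), against -0.43 to -0.27 in the other 3. Mitochondrial genes took 0.589% of its counts and 1.04% to 1.27% of those of the other 3. Of 8951 genes with a mean of at least 10 CPM (gene counts scaled to library size), 1 differed over 2-fold within the knock-in pair and 153 within the wild-type pair. Results are therefore also given with each library's trend in GC content removed, and without wild-type 1 or wild-type 2. The tagged gene, Ep300, had 181 and 210 CPM in the knock-in and 209 and 210 CPM in the wild-type libraries, and its whole-gene count does not check the tag. The 8 pluripotency markers examined, among them Pou5f1, Nanog and Sox2, summed to 6228 and 5868 CPM in the knock-in libraries and 5764 and 5701 CPM in the wild-type libraries.

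The promoters of Ddr2, Ddr1 and Itgb1 are shown because Ddr2 had the greatest difference between the lines, Ddr1 is its paralog, and Itgb1 had the highest level per length. Each is 300 bases on the strand of the gene, with 250 before and 50 after the start, from RefSeq on GRCm38.p6, and the capitals mark CpG dinucleotides. Ddr2 (chr1:170088895-170089194, minus strand), Ddr1 (chr17:35700541-35700840, minus strand) and Itgb1 (chr8:128685404-128685703, plus strand) read:
Ddr2: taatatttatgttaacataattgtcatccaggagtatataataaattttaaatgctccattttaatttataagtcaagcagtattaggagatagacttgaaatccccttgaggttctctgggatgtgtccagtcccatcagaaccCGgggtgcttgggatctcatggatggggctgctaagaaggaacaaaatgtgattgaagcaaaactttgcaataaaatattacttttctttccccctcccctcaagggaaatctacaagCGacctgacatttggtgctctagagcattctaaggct
Ddr1: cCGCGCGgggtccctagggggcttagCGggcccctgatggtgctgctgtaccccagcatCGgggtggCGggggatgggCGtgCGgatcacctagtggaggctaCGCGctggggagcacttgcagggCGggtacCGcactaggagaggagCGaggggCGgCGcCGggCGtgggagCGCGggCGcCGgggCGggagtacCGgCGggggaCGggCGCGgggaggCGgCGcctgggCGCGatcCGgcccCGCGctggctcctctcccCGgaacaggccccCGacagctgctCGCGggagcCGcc
Itgb1: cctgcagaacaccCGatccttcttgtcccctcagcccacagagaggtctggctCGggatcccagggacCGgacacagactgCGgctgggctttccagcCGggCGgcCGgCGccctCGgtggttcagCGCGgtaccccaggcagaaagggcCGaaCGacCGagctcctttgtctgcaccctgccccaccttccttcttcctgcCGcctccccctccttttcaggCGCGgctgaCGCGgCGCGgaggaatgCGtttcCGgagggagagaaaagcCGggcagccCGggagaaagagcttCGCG
The window of Ddr2 held 2 CpG dinucleotides, and 23.3% of 32851 mouse promoter windows of this length held as few or fewer. The window of Ddr1 held 39 (96.1% as few or fewer) and that of Itgb1 held 27 (85.8%), against a median of 7. The Ddr1 window is the one richest in CpG of its 4 entries, the others holding 7 to 10. Across the other members with an entry, Itga1, Itga3, Itga5, Itgav and Itgb5, windows held 5 to 24. Entries matched for 8 of the 10 genes, all but Itga6 and Itgb4. The letters TATAAA, sought on both strands and present in 13.6% of the windows, occurred in that of Ddr2 and in no other window of the 8 genes. In Ddr2 the match is on the opposite strand, as TTTATA in the printed bases, among the 250 before the start. Its role was not tested. The letters GGGCGG, sought likewise and present in 35.7%, occurred in the printed windows of Ddr1 and Itgb1 and not in that of Ddr2. They were also absent from the window of Itga1 and from that of Ddr1 at chr17:35704090-35704389. Of 6 annotated Ddr2 transcripts 4 start 21.6 to 21.8 kb upstream of this RefSeq start, and counts per gene do not tell the starts apart.

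Among the integrin and discoidin receptor genes, Itgb1 and Itga5, the subunits of the classical fibronectin receptor, had the highest levels. Levels are compared between genes as scaled CPM per kilobase of exon (CPM per kb). Itgb1 (ENSMUSG00000025809, chr8:128685654-128733200), the common beta subunit, had 48.1 and 49.5 CPM per kb in the knock-in libraries and 47.6 and 35.1 CPM per kb in the wild-type libraries. Itga5 (ENSMUSG00000000555, chr15:103344286-103366763) had 35.6 and 37.3 CPM per kb in the knock-in libraries, against 40.4 and 43.1 CPM per kb in the wild-type libraries. Wild-type 2 was the lowest library for Itgb1, and for Itga5 both knock-in libraries lay below both wild-type libraries.

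Next came the laminin-binding alpha subunits Itga6 and Itga3 and the vitronectin receptor subunit Itgb5. Itga6 (ENSMUSG00000027111, chr2:71745616-71858416) had 22.2 and 22.7 CPM per kb in the knock-in libraries and 21.1 and 15.8 CPM per kb in the wild-type libraries. Itga3 (ENSMUSG00000001507, chr11:95044474-95076801) had 13.3 and 14.1 CPM per kb in the knock-in libraries and 17.2 and 21.9 CPM per kb in the wild-type libraries. Itgb5 (ENSMUSG00000022817, chr16:33829665-33949338) had 14.8 and 13.7 CPM per kb in the knock-in libraries and 13.8 and 19.8 CPM per kb in the wild-type libraries. The knock-in pair lay above the wild-type pair for Itga6 and below it for Itga3, and the pairs overlapped for Itgb5.

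Ddr1 (ENSMUSG00000003534, chr17:35681567-35704621) was the more abundant discoidin receptor, at 7.22 and 7.27 CPM per kb in the knock-in libraries, against 9.75 and 10.8 CPM per kb in the wild-type libraries. Ddr2 (ENSMUSG00000026674, chr1:169972307-170110762) had 1.11 and 1.20 CPM per kb in the knock-in libraries, against 3.75 and 3.37 CPM per kb in the wild-type libraries. Both genes were lower in each knock-in library than in either wild-type library.

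The remaining members had low levels. Itgav (ENSMUSG00000027087, chr2:83724397-83806916), the alpha subunit of the RGD receptors, had 2.55 and 2.93 CPM per kb in the knock-in libraries and 3.48 and 2.58 CPM per kb in the wild-type libraries. Itgb4 (ENSMUSG00000020758, chr11:115974709-116008412), the hemidesmosome subunit, had 1.69 and 1.51 CPM per kb in the knock-in libraries and 2.11 and 2.76 CPM per kb in the wild-type libraries. Itga1 (ENSMUSG00000042284, chr13:114953096-115101964), an alpha subunit of a collagen-binding integrin, had 0.0353 and 0.0403 CPM per kb in the knock-in libraries and 0.0547 and 0.0415 CPM per kb in the wild-type libraries. These rested on 16 and 14 counts in the knock-in and 28 and 17 counts in the wild-type libraries. All 10 members passed the low-count filter of the test, Itga1 with the fewest counts.

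In order of the mean over the 4 libraries the levels were 45.1 CPM per kb for Itgb1, 39.1 for Itga5, 20.4 for Itga6, 16.6 for Itga3, 15.5 for Itgb5, 8.77 for Ddr1, 2.89 for Itgav, 2.36 for Ddr2, 2.02 for Itgb4 and 0.0430 for Itga1. The drops from Itga5 to Itga6, Itgb5 to Ddr1, Ddr1 to Itgav and Itgb4 to Itga1 held in 4 of 4 libraries, with ranges that did not overlap. Itgb1 and Itga5, Itga6 and Itga3, and Itga3 and Itgb5 kept their order in 3 of 4 libraries, and their ranges overlapped. Itgav and Ddr2, and Ddr2 and Itgb4, kept it in 2 of 4. Ddr2 was the 9th of the 10 in the knock-in line and the 7th in the wild-type line, and Itga3 the 5th and the 3rd. Among the 15191 genes tested, the percentile of level per kb was 92.5 for Itgb1, 91.2 for Itga5, 66.2 for Ddr1, 39.6 for Ddr2 and 0.316 for Itga1. With the longest transcript in place of all exons as the length, Itga5 averaged 43.7 and Itga6 42.8 CPM per kb. The drop between these genes thus depended on the length used. With that length or with TPM scaling (counts per length over their sum) all 10 places of the means held. The order within single libraries and the shares given next were computed with exon length only.

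**Figure D1:**
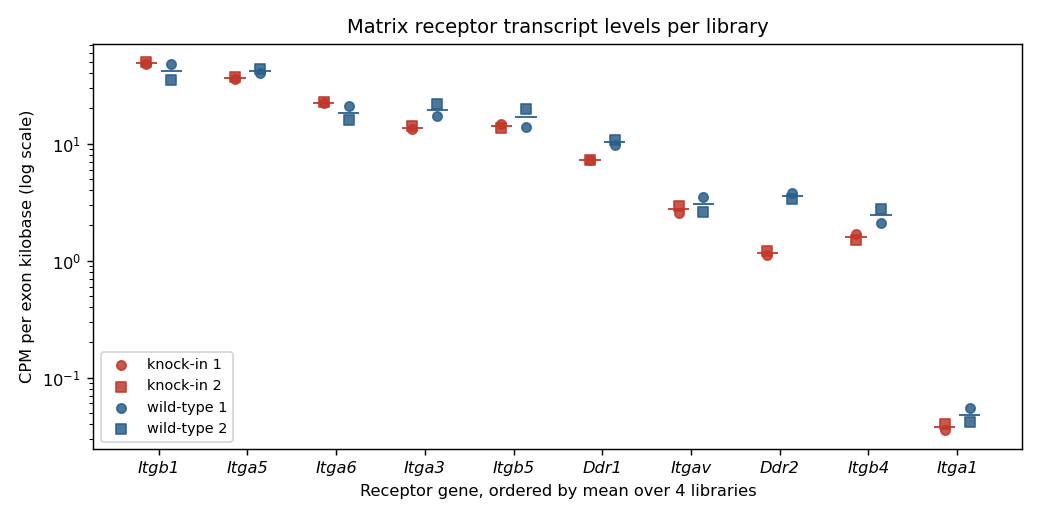
Level of each matrix receptor gene in each library, in CPM per kilobase of exon on a log axis, with knock-in libraries left of wild-type libraries and genes ordered by mean. Levels span 0.0353 CPM per kb (Itga1, knock-in 1) to 49.5 CPM per kb (Itgb1, knock-in 2), and Ddr2 has the widest gap between the lines.

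Among 18 integrin alpha genes, 12 of them tested, the 5 members took 91.1% and 91.2% of the summed level per kb in the knock-in libraries and 90.2% and 90.1% in the wild-type libraries. Itga5 alone took 44.0% and 44.2% in the knock-in libraries and 44.4% and 46.6% in the wild-type libraries. Itga6 took 27.4% and 26.8% of that sum in the knock-in libraries, against 23.1% and 17.1% in the wild-type libraries. Itga3 took 16.5% and 16.7% in the knock-in libraries, against 18.8% and 23.6% in the wild-type libraries. The alpha gene outside the members with the highest share was Itga9, at 3.97% to 4.41% over the 4 libraries. Itga2, the alpha subunit of another collagen-binding integrin, had 1 count in all, and Itga4 had 2 to 9 counts per library. Itga10 had 33 to 62 counts per library and a mean of 0.347 CPM per kb, above Itga1, and Itga11 had 1 to 7 counts.

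Among 9 integrin beta genes, 6 of them tested, Itgb1 took 62.5% and 63.4% of the summed level per kb in the knock-in libraries and 62.2% and 47.5% in the wild-type libraries. Itgb5 took 19.3% and 17.6% in the knock-in libraries and 18.0% and 26.8% in the wild-type libraries. Itgb7, which pairs with Itga4 or Itgae in leukocytes, took 13.9% to 18.3%, above Itgb4 at 1.94% to 3.74%. The Itgb1 share was 62.2% to 63.4% in the 3 libraries other than wild-type 2. Itgad, Itgb2l and Itgb8 had 0 counts in every library. A count of 0 allows up to 0.123 and 0.161 CPM in the knock-in and 0.109 and 0.136 CPM in the wild-type libraries, for counting error only.

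Of the matrix receptors of other families, the laminin receptors Bcam and Dag1 had higher means over the 4 libraries than any integrin gene, at 97.3 and 48.8 CPM per kb. Dag1 was below Itgb1 in both knock-in libraries, at 43.4 and 48.2 CPM per kb. It was above Itgb1 in both wild-type libraries, at 52.2 and 51.4 CPM per kb.

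The discoidin receptors differed in their balance. Ddr1 took 86.7% and 85.8% of their summed level per kb in the knock-in libraries, against 72.2% and 76.2% in the wild-type libraries. Ddr1 exceeded Ddr2 per kb 6.49 and 6.05-fold in the knock-in libraries, against 2.60 and 3.21-fold in the wild-type libraries. The ratio of Itga6 to Itgb4, the hemidesmosome pair, was 13.2 and 15.0 in the knock-in libraries and 9.99 and 5.72 in the wild-type libraries. This ratio was not corrected for GC content, 48.9% for Itga6 and 60.0% for Itgb4. From wild-type 1 to wild-type 2, Itga6 moved by -0.41 and Itgb4 by 0.39 on the log2 scale.

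**Figure D2:**
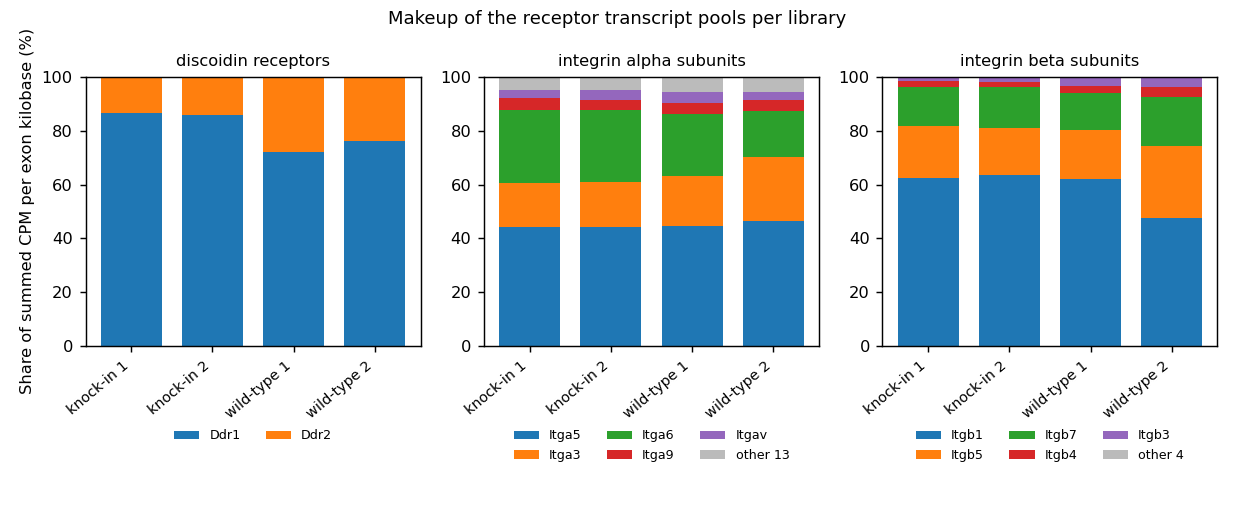
Share of each gene, in percent of the summed CPM per kilobase of exon, within the discoidin receptors, the integrin alpha subunits and the integrin beta subunits, with 1 bar per library and knock-in libraries on the left. Ddr1 takes 85.8% to 86.7% of the discoidin receptors in the knock-in line and 72.2% to 76.2% in the wild-type line, while Itga5 takes 44.0% to 46.6% of the alpha subunits in all 4 libraries.

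Between the lines, Ddr2 was the member with the greatest difference. It had 10.3 and 11.1 CPM in the knock-in libraries, from 251 and 208 counts, against 34.7 and 31.2 CPM in the wild-type libraries, from 956 and 688 counts. The means were 10.7 ± 0.587 CPM in the knock-in and 33.0 ± 2.46 CPM in the wild-type line (SD, n = 2 each). Every knock-in value was below every wild-type value, and the line difference was many times the spread within either pair. The log2 fold change, knock-in over wild-type, was -1.62 (SE 0.18, 95% interval -2.03 to -1.21), a level 3.08-fold lower in the knock-in line. With each library's GC trend removed it was -1.72 (SE 0.14), 3.30-fold lower. Since this contrast was known when the genes were chosen, their differences, and the counts of members past the threshold given further on, are descriptions and no independent test. In bulk RNA, fewer cells that express a gene and less RNA per cell cannot be told apart.

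Ddr1, the other collagen-activated kinase, had 34.5 and 34.7 CPM in the knock-in libraries and 46.5 and 51.7 CPM in the wild-type libraries. Its means were 34.6 ± 0.142 CPM in the knock-in and 49.1 ± 3.64 CPM in the wild-type line (SD, n = 2 each), without overlap. Its log2 fold change came to -0.51 (SE 0.16, 95% interval -0.87 to -0.14), and -0.25 (SE 0.12) with the GC trend removed. The interval of Ddr1 lay above that of Ddr2 in both fits, although the difference between the genes was not tested. Itga1, the collagen-binding alpha subunit among the members, had 0.657 and 0.749 CPM in the knock-in libraries and 1.02 and 0.772 CPM in the wild-type libraries. Its log2 fold change of -0.36 had an SE of 0.45 and an interval of -1.37 to 0.65, so a difference of this size was within the error at this depth.

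The laminin-binding subunits lay on both sides of 0. Itga3 had 76.0 and 80.6 CPM in the knock-in libraries and 98.0 and 125 CPM in the wild-type libraries. This gave a log2 fold change of -0.51 (SE 0.17, 95% interval -0.89 to -0.13). Itga6 was on the other side, with 200.2 and 205 CPM in the knock-in libraries and 190.0 and 143 CPM in the wild-type libraries. Itga6 thus had a log2 fold change of 0.28 (SE 0.17, interval -0.10 to 0.67), and the gap between the lines was narrow against wild-type 1. Itgb4 had 11.8 and 10.6 CPM in the knock-in libraries and 14.8 and 19.4 CPM in the wild-type libraries, a log2 fold change of -0.60 (SE 0.21, interval -1.08 to -0.13). All 3 genes kept their direction with the GC trend removed, at -0.26 (SE 0.11) for Itga3, 0.33 (SE 0.12) for Itga6 and -0.34 (SE 0.15) for Itgb4.

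The fibronectin and vitronectin receptor subunits had intervals that took in 0. Itga5 had 175 and 184 CPM in the knock-in libraries and 199 and 213 CPM in the wild-type libraries, a log2 fold change of -0.20 (SE 0.14, interval -0.52 to 0.12). Its direction turned with the GC trend removed, to 0.035 (SE 0.11). Itgav had 27.4 and 31.5 CPM in the knock-in libraries and 37.4 and 27.7 CPM in the wild-type libraries, a log2 fold change of -0.15 (SE 0.20, interval -0.59 to 0.30). Itgb5 had 52.8 and 48.7 CPM in the knock-in libraries and 49.1 and 70.4 CPM in the wild-type libraries, a log2 fold change of -0.23 (SE 0.20, interval -0.68 to 0.21). The lines overlapped for both, and Itgb5 also turned, to 0.011 (SE 0.13), with the GC trend removed. Itgb1 had 196 and 202 CPM in the knock-in libraries and 194 and 143 CPM in the wild-type libraries. Its log2 fold change came to 0.24 (SE 0.17, interval -0.15 to 0.63), with wild-type 1 close below the lower knock-in library.

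**Figure D3:**
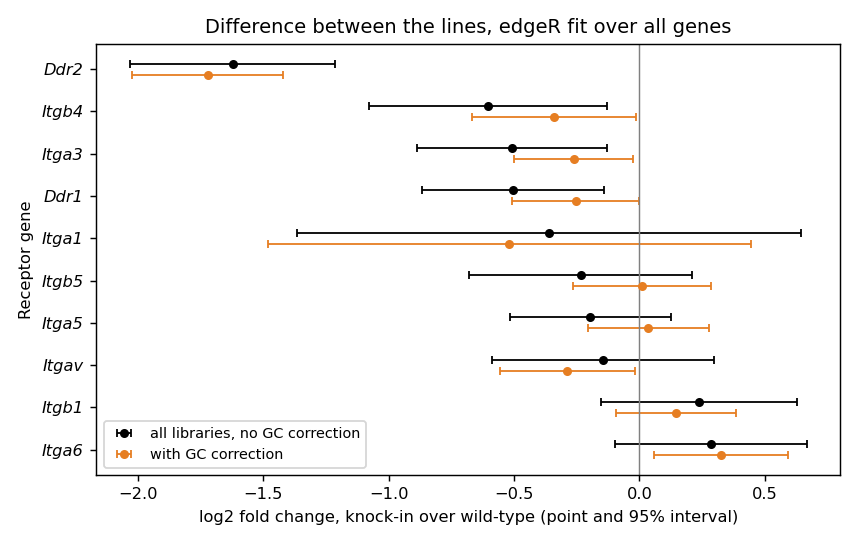
Log2 fold change of each receptor gene, knock-in over wild-type, as a point with its 95% interval, with all libraries as counted and with each library's GC trend removed. The interval of Ddr2 lies between -2.03 and -1.21 as counted, below those of all other members but Itga1, whose interval of -1.37 to 0.65 overlaps it.

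Of the 10 members, 1 was below the threshold of 0.05 on the adjusted p of edgeR's quasi-likelihood test, Ddr2 on the lower side, against 0.0592% of all 15191 genes on that side and 0.0658% in either direction. With the GC trend removed it was again Ddr2 alone, against 0.856% of all genes on the lower side and 1.18% in either direction. Both knock-in libraries lay below both wild-type libraries in 6 members, Ddr1, Ddr2, Itga1, Itga3, Itga5 and Itgb4, against 23.9% of all genes. They lay above in 2, Itga6 and Itgb1, against 23.4% of all genes, and the remaining Itgav and Itgb5 overlapped. The choice of members used this contrast, so nothing is read from these counts or from those without a library.

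The counts of members past the threshold turned on the wild-type libraries. Without wild-type 1, 7 members passed, Itga6 and Itgb1 on the higher side and Ddr1, Ddr2, Itga3, Itgb4 and Itgb5 on the lower, where 32.1% of all genes passed, 19% higher and 13.1% lower. Without wild-type 2, 3 members passed, Ddr1, Ddr2 and Itga3 on the lower side, where 3.68% of all genes passed lower and 4.39% in either direction. After GC correction and without wild-type 1 the 7 had log2 fold changes of 0.49 (Itga6), 0.20 (Itgb1), -0.20 (Ddr1), -1.80 (Ddr2), -0.32 (Itga3), -0.40 (Itgb4) and -0.13 (Itgb5). After GC correction and without wild-type 2, Ddr1, Ddr2 and Itga3 were at -0.30, -1.62 and -0.19. As counted, without knock-in 1 Ddr2 alone passed, against 0.101% of all genes lower and 0.107% in either direction. Without knock-in 2 it was again Ddr2 alone, against 0.0866% lower and 0.099% in either direction. The longest transcripts of Ddr1, Itga3, Itga5, Itgb4 and Itgb5 had GC contents of 57.0% to 60.0%, and these genes had higher CPM in wild-type 2 than in wild-type 1. Those of Ddr2, Itga1, Itga6, Itgav and Itgb1 had 42.8% to 48.9%, and these genes had lower CPM in wild-type 2 than in wild-type 1. Over the members the log2 ratio of wild-type 2 to wild-type 1 ran from -0.44 for Itgb1 to 0.52 for Itgb5, and that of knock-in 2 to knock-in 1 from -0.16 for Itgb4 to 0.20 for Itgav. Ddr2 had -0.15 between the wild-type libraries, against -1.62 between the lines.

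**Figure D4:**
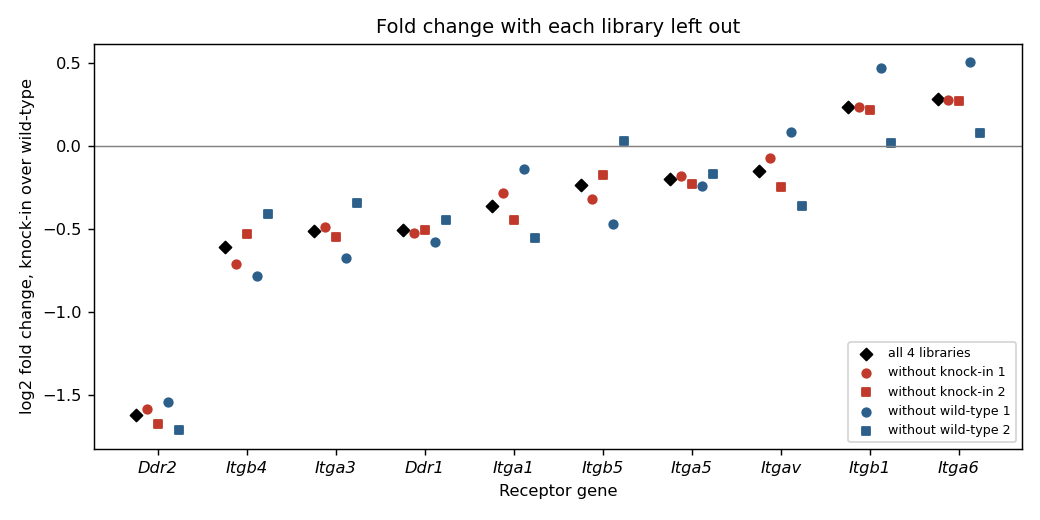
Log2 fold change of each receptor gene, knock-in over wild-type, with all 4 libraries and with each library left out in turn. Over the fits shown Ddr2 runs from -1.71 to -1.54, Itgb5 changes sign without wild-type 2 and Itgav without wild-type 1.

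The related genes of matrix adhesion, in 8 lists, held 109 tested genes of 136 listed. The lists were chosen with earlier results of these data known, so their counts and medians are descriptions and no independent test. None passed the threshold in edgeR's test of all libraries, and 32 had an unadjusted p under 0.05, all lower. With DESeq2 7 passed, also lower, against 0.81% of all genes in either direction. With limma-voom 0 passed, against 0.0263% of all genes. Of all genes, 7.40% had an unadjusted p under 0.05 on the lower side and 3.54% on the higher side. The median log2 fold change over these lists was -0.28, with 89 of 109 below 0, against 0.00098 over all genes, of which 49.9% were below 0. With the GC trend removed the median was -0.12, with 74 of 109 below 0, against 0.058 and 41.4% over all genes. In that fit 7 genes passed, 1 higher and 6 lower, against 0.329% and 0.856% of all genes. As counted, the log2 fold changes of these 6 lower genes ran from -1.44 (Timp3) to -0.94 (Gpc4) without wild-type 1. Without wild-type 2 they ran from -1.29 (Col4a2) to -0.87 (Gpc4). The higher gene, Parvb, was at 0.16 without wild-type 1 and 0.41 without wild-type 2.

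Collagens, the ligands of the discoidin receptors and of the Itga1 integrin, included 2 genes past the threshold on the lower side with the GC trend removed, none as counted. Of 14 collagen genes 9 were tested, all 9 with a log2 fold change below 0 in both fits. Their median was -0.71 as counted and -0.48 with the GC trend removed. Col4a1, a chain of basement membrane collagen IV, had 53.3 and 53.9 CPM in the knock-in libraries and 118 and 111 CPM in the wild-type libraries. As counted the log2 fold change of Col4a1 was -1.10 (SE 0.15) at an edgeR adjusted p = 0.0554. With the GC trend removed it was -0.87 (SE 0.12) at an edgeR adjusted p = 0.00389. Col4a2, its partner chain, had 17.9 and 21.1 CPM in the knock-in libraries and 47.0 and 44.5 CPM in the wild-type libraries. As counted its log2 fold change was -1.23 (SE 0.17) at an edgeR adjusted p = 0.0604. With the GC trend removed Col4a2 passed, at -0.99 (SE 0.15) and an edgeR adjusted p = 0.00438. The fibrillar collagens Col1a1 and Col1a2, ligands of Ddr2, had at most 62 and 17 counts in any library. In the same list Col5a1 had 247 to 607 and Col2a1 106 to 189 counts per library, while Col3a1 had 3 to 6.

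Of 11 laminin chains, the ligands of the Itga3 and Itga6 integrins, 9 were tested, all 9 below 0 with a median of -0.49. After GC correction 8 were below 0, with a median of -0.34. Of 14 RGD and related ligands 10 were tested, and none passed the threshold in either fit. Their median was -0.47 as counted and -0.35 with the GC trend removed. The most abundant per kb were Spp1 (osteopontin), at 308 and 289 CPM per kb in the knock-in and 348 and 396 CPM per kb in the wild-type libraries, and Fn1 (fibronectin). Fn1, the ligand of the Itga5 integrin, had 97.1 and 124 CPM per kb in the knock-in and 116 and 121 CPM per kb in the wild-type libraries, with overlap. Vtn (vitronectin) had 1 count in all 4 libraries.

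Among the other 19 integrin genes 10 were tested, 9 of them below 0, with a median of -0.49. After GC correction 7 were below 0, with a median of -0.29. Itgb3, which pairs with Itgav, had 6.98 and 7.66 CPM in the knock-in libraries and 13.3 and 14.7 CPM in the wild-type libraries. As counted it differed by -0.93 on the log2 scale (SE 0.20) at an edgeR adjusted p = 0.182. It alone of the list passed with the GC trend removed, at -0.80 (SE 0.17, edgeR adjusted p = 0.0335). Of 14 other matrix receptors 11 were tested, all 11 below 0 in both fits, with a median of -0.50 as counted and -0.28 after GC correction. Of these Gpc4, a cell-surface heparan sulfate proteoglycan, had 13.6 and 15.6 CPM in the knock-in libraries and 26.3 and 28.0 CPM in the wild-type libraries. It passed with the GC trend removed, at -0.79 (SE 0.14, edgeR adjusted p = 0.0125), against -0.89 (adjusted p = 0.149) as counted.

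The machinery on the inner side of the membrane had the list median nearest to 0. Of 35 integrin activators and focal adhesion genes 33 were tested, with a median of -0.075 and 22 below 0. With the GC trend removed the median was 0.054 and 13 were below 0. Parvb, a parvin that links the integrin-linked kinase complex to actin, had 162 and 151 CPM in the knock-in libraries and 117 and 140 CPM in the wild-type libraries. It passed on the higher side with the GC trend removed, at 0.50 (SE 0.11, edgeR adjusted p = 0.0458), against 0.29 (adjusted p = 0.501) as counted. Ilk, the integrin-linked kinase, is listed at 0 in every library in the column counted without regard to strand, but at 371 to 551 in each single-strand column, so its level was not read.

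Of 13 membrane partners and hemidesmosome genes 12 were tested, and none passed the threshold in either fit. Their median was -0.28 as counted and -0.11 with the GC trend removed. The most abundant per kb were Bsg (basigin), at 305 and 289 CPM per kb in the knock-in and 353 and 425 CPM per kb in the wild-type libraries, and Slc3a2 (CD98 heavy chain), at 129 and 127 CPM per kb in the knock-in and 144 and 166 CPM per kb in the wild-type libraries. Of 16 genes of discoidin receptor signalling and collagen breakdown 15 were tested. Their median was -0.18 as counted and -0.11 with the GC trend removed. Timp3, an inhibitor of matrix metalloproteinases, had 2.05 and 2.30 CPM in the knock-in libraries and 5.09 and 5.90 CPM in the wild-type libraries. It passed with the GC trend removed, at -1.38 (SE 0.26, edgeR adjusted p = 0.0208), against -1.34 (adjusted p = 0.148) as counted. Shc1, an adaptor that binds activated discoidin receptors, had a log2 fold change of 0.024.

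**Figure D5:**
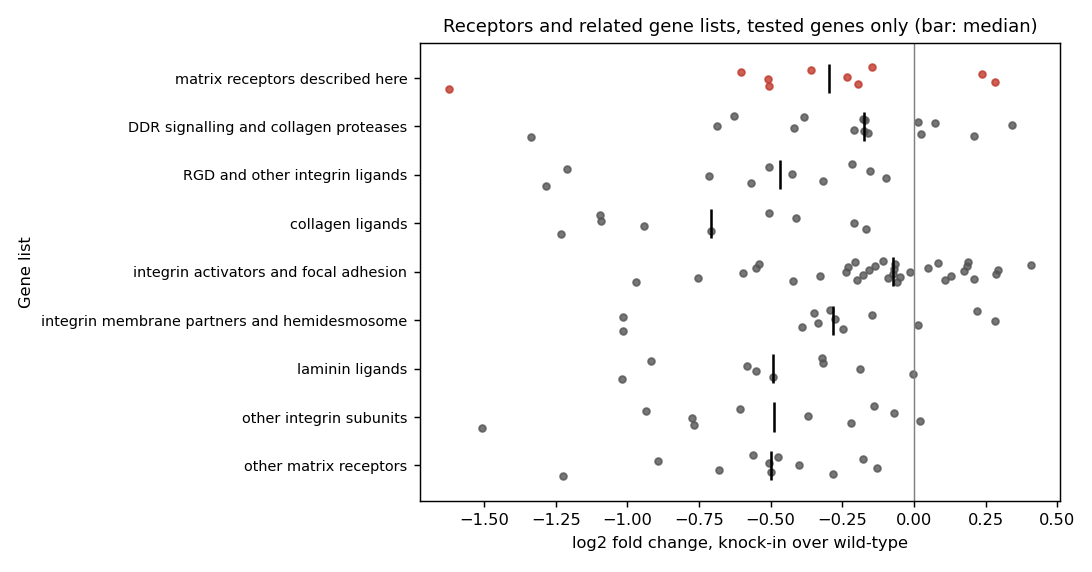
Log2 fold change, knock-in over wild-type, of every tested gene of the matrix receptors and of the 8 related lists, with a bar at each list's median. The collagen ligands have the lowest median, -0.71, and the integrin activators the one nearest to 0, -0.075.

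Ddr2 is known from fibroblasts and other mesenchymal cells, so their markers are given beside it. The 8 fibroblast or feeder markers summed to 21.8 and 23.7 CPM in the knock-in libraries, against 35.4 and 38.4 CPM in the wild-type libraries. Of the 8, 3 were tested, Col1a1, Thy1 and Pdgfrb, with log2 fold changes of -0.94, -0.55 and -0.88 on the lower side. In edgeR's test all 3 had an unadjusted p under 0.05 and none passed the threshold, and 0 passed with DESeq2 or limma-voom. The defining markers Lum and Twist2 had 0 counts in every library, Dcn had 1 count in all and Postn 1 count in each library. Col3a1 had 6 and 3 counts in the knock-in libraries and 4 and 6 counts in the wild-type libraries, with overlap. The part of these markers in the Ddr2 difference was not tested. The 8 primitive endoderm markers summed to 11.7 and 10.3 CPM in the knock-in libraries and 11.0 and 10.6 CPM in the wild-type libraries. The 7 trophoblast markers summed to 56.2 and 54.3 CPM in the knock-in libraries and 46.9 and 45.9 CPM in the wild-type libraries. Most of that sum was Tfap2c, at 47.4 and 44.7 CPM in the knock-in libraries and 34.2 and 34.9 CPM in the wild-type libraries, which passed on the higher side with the GC trend removed (edgeR adjusted p = 0.0338). Of the 7, 4 were tested, with a median log2 fold change of -0.037 as counted. The 2 below 0 were Eomes and Krt7, at -0.49 and -1.21, and neither passed.

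The genes on either side of Ddr2 did not pass the threshold. Hsd17b7, the nearest tested gene on the side of lower coordinates (chr1:169949535-169969241), differed by -0.12 on the log2 scale (SE 0.22) at an edgeR adjusted p = 0.849. Uap1, the nearest on the other side (chr1:170141938-170174957), differed by 0.25 (SE 0.18) at an edgeR adjusted p = 0.595. The interval of Hsd17b7, -0.62 to 0.38, and that of Uap1, -0.16 to 0.65, both lay above the interval of Ddr2. Among 8950 other genes with a mean of at least 10 CPM, the profiles most like that of Ddr2 over the 4 libraries were those of Ccnd2, Slc13a5 and Krt19. Their Euclidean distances, after centring log2 CPM on each gene's mean, were 0.18, 0.22 and 0.24. Ccnd2 (cyclin D2) had a log2 fold change of -1.48, Slc13a5 (a citrate transporter) -1.47 and Krt19 (a keratin) -1.59, and all 3 were past the threshold on the lower side. As the measure weighs the same contrast, this is a description.

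Some members share sequence or exons with other annotated genes. The sum of the single-strand counts over the count without strand was 1.00 to 1.01 for 9 members and 1.13 for Itgb4, whose exons overlap those of B230344G16Rik on the other strand. For Itgb4 the ratio was the same in the knock-in and wild-type lines. Ddr2 overlaps 3110045C21Rik on the other strand, at a ratio of 1.01. Of the distinct 50-base stretches of each member's transcripts, 1.12% to 7.25% were also in another gene for 7 members, the most in Itgb5. For Itga3, Itga5 and Itgb1 it was 0%, and no stretch was in another member.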

How the data were processed

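Gene expression was measured by RNA sequencing of 2 knock-in and 2 wild-type libraries. The deposited tables hold raw counts of reads per gene, made by the authors with STAR 2.5.3a after Trim Galore on GRCm38 (mm10), per the submitters' processing notes; the annotation release is not given in the sources used here. The column counted without strand was used, and the summary rows were left out: unmapped 2.38% to 4.39%, multimapping 3.80% to 4.46%, outside features 2.23% to 3.67% and ambiguous 5.96% to 6.38% of reads. Symbols, coordinates, exon lengths and transcript GC content came from GENCODE M21, which matched 54809 of 54838 identifiers.

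All genes were fitted together with edgeR 4.0.16 in R 4.3.3: TMM scaling, filterByExpr (minimum count 10), a model of genotype alone, the quasi-likelihood test and Benjamini-Hochberg adjustment over 15191 genes at 0.05. The standard error is the absolute log2 fold change over the square root of F. The p-values measure only the spread between these samples. GC correction used as offset a natural spline (5 degrees of freedom) of each library's log2 CPM deviation on GC content. The procedure was tested on simulated counts with the same dispersion for all genes and both groups and no GC trend. That simulation therefore does not check the calls under the GC trend of wild-type 2. Other settings were RLE size factors, other filters, single-strand counts, a replicate block, DESeq2 1.42.0, limma-voom (limma 3.58.1), glmTreat at 1.5-fold and each library left out; GC correction without each library and a crossed block were added after seeing the data.

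The members and lists were chosen with earlier results of these data known. Named were all members, the nearest tested gene on either side of Ddr2, the 3 genes with a profile most like Ddr2, and in each list up to 4 genes per direction past the threshold with or without GC correction or, where none passed, the 2 highest per exon kilobase. Any other gene was named after its values were seen. A result for an item that this rule names is not reported here.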

Additional observations from a re-analysis of the deposited data

How the results depend on the processing

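Of the members, Ddr2, Ddr1, Itga3, Itga6, Itgb1 and Itgb4 kept their direction under every alternative, with Ddr2 between -1.80 and -1.54. These are values that the choice of members used, so neither they nor the members' calls are independent support. Itga5 turned to 0.035 with GC correction, 0.036 with GC correction and the block, and 0.10, 0.059 and 0.029 with GC correction without wild-type 1, knock-in 1 or knock-in 2. Itgb5 turned to 0.011 with GC correction, 0.016 with GC correction and the block, and 0.18 and 0.094 with GC correction without wild-type 2 or knock-in 2. Leaving out a library put Itgb5 between -0.47 and 0.034 (turned without wild-type 2) and Itgav between -0.36 and 0.086 (turned without wild-type 1). Itga1 turned to 0.021 with forward-strand counts. The causes were not tested, and Itga1 was not tested with the stricter filter or with reverse-strand counts, where it missed the low-count filter.

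Genes past the threshold numbered 10 (1 higher, 9 lower); 354 (63, 291) with no low-count filter, 6 (1, 5) with the stricter one, 13 (1, 12) with RLE factors, 123 (7, 116) with DESeq2, 4 (1, 3) with limma-voom, 180 (50, 130) with GC correction and 2 (1, 1) with the minimum fold, where 0 members passed. Leaving out a library gave 16 to 5015 (1 to 2975 higher, 14 to 2040 lower), with 0 to 2 members higher and 1 to 5 lower and 0 to 9 related genes higher and 0 to 48 lower; the spread then rests on the other group's pair. With GC correction as well it gave 1566 (939, 627) without wild-type 1, with 1 member higher and 3 related genes higher and 13 lower; 647 (321, 326; related 2, 13) without wild-type 2; 94 (20, 74; related 5 lower) without knock-in 1; and 62 (16, 46; related 2 lower) without knock-in 2. Related genes lower numbered 10 with no filter, 7 with DESeq2, 6 with GC correction (1 higher) and 2 each with RLE factors, forward-strand and reverse-strand counts.

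Nothing in the labels pairs equal replicate numbers, and their deviations correlated at -0.12 across 15191 genes. A replicate block gave 197 genes, 1.3% of all tested (46 higher, 151 lower), with 8 related genes lower. The block with GC correction gave 403, 2.65% (149 higher, 254 lower), with 3 related genes higher and 11 lower. A crossed block, chosen after seeing the data, gave 509, 3.35% (175 higher, 334 lower), with 11 related genes lower. Ddr2 was the only member past the threshold in each.

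Of Ddr1, Itga3 and Itgb4, at -0.51, -0.51 and -0.60 as counted, Ddr1 and Itga3 passed the threshold with either wild-type library left out and Itgb4 without wild-type 1. With GC correction they were at -0.25, -0.26 and -0.34, and none of the 3 passed with any library left out.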
